A study of Mus musculus with 8 samples.

Results

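Upstream promoter summits were ATAC-seq peak summits of mouse brown adipose tissue (BAT) that lay more than 100 bp and at most 1000 bp upstream, by strand, of their nearest transcription start site (TSS) of a RefSeq mRNA (NM transcript). A summit is the highest point of a peak of open chromatin. Summits between the TSSs of 2 different genes that point away from each other, at most 1 kb apart, were left out, and there were 127 of these in the window. On chromosomes 1 to 19, 3080 of 31729 summits met the rule, which is 9.71% (95% Wilson interval 9.39 to 10.04, covering counting error only), out of 32173 summits in all. They belonged to 2932 of the 20021 genes with an NM TSS, so that the background share of genes with an upstream promoter summit was 14.6%.

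The tissue came from 12-week-old mice on chow diet that were kept at 4°C for 4 hr, 2 WT and 2 Dot1L-BKO. WT mice were Dot1l f/f controls, and Dot1L-BKO mice carried the floxed Dot1l alleles with Ucp1-Cre, which deletes the gene in Ucp1+ cells, so that cells of BAT without Ucp1 kept Dot1l. Both genotypes were exposed to cold. The 4 libraries gave 1 list of summits, named as WT against Dot1L-BKO, and the sources used here do not say if peaks were called with Dot1L-BKO reads as the background. The paper describes a union of regions built from MACS2 peaks of each sample, but does not link it to this list. The list holds no value per library, and therefore depth is unknown, no replicate error can be given, and the genotypes could not be compared. The value of each summit is its score, the −log10 of the q-value of its peak, and a higher score means that the pile of reads stood out more clearly from the background used in peak calling. In whole tissue, fewer cells of a type and less open chromatin per cell cannot be told apart.

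The DNA just upstream of a TSS is the proximal promoter. Sequence-specific factors bind there next to the core promoter, where RNA polymerase II and the general factors assemble. GC boxes bound by SP and KLF factors, CCAAT boxes bound by NF-Y, and sites for ETS factors, NRF1 and CREB are classical elements of this stretch, and many housekeeping and regulatory genes start within CpG islands. In brown fat, C/EBP, EBF and PPAR factors act at promoters and enhancers of adipocyte genes, and cold acts through cAMP to switch on heat production and lipid use.

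The first sequences shown are from summits among the 10 with the highest scores, because they hold the classical promoter elements in different combinations. Each run is 151 bases of mm10 centred on the summit, 5′ to 3′ on the strand of the gene. Capitals mark matches to 20 short patterns searched on both strands, and matches that overlap or adjoin form 1 run of capitals.
Khsrp, chr17:57031757-57031907, minus strand: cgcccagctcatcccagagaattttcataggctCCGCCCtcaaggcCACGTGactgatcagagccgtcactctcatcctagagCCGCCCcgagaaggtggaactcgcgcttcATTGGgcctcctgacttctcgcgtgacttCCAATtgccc
Cycs, chr6:50566635-50566785, minus strand: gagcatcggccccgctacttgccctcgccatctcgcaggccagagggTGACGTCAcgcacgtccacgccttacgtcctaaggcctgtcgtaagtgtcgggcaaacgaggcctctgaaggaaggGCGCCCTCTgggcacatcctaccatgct
Slc25a42, chr8:70212504-70212654, minus strand: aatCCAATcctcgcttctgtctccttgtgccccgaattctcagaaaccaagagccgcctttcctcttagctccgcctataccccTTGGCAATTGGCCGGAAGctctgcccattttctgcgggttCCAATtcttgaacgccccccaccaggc
Mtrf1l, chr10:5824166-5824316, minus strand: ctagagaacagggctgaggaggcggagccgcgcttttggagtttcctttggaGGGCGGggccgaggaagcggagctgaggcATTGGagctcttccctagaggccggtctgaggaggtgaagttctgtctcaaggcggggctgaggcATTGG

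The Khsrp window held 2 GC boxes, 2 CCAAT boxes and 1 E-box. In the Cycs window the capitals were a full cAMP response element and a match to the CTCF pattern, and NRF1 and EBF matches within 100 bp of the summit were not wholly inside the printed stretch. Slc25a42 had 3 CCAAT boxes, of which 1 adjoined an NFI and an ETS match. Mtrf1l had 2 CCAAT boxes and 1 GC box.

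The next sequences are from genes of brown fat and lipid use, shown because their windows ranged from GC boxes to patterns of C/EBP, EBF and FOX factors.
Esrra, chr19:6921958-6922108, minus strand: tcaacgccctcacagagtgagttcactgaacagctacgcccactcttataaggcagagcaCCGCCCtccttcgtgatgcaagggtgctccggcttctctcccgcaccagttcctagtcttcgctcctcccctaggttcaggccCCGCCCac
Pank1, chr19:34878002-34878152, minus strand: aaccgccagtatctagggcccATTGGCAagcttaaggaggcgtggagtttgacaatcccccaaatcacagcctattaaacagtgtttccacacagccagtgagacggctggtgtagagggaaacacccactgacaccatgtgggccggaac
Plin5, chr17:56117325-56117475, minus strand: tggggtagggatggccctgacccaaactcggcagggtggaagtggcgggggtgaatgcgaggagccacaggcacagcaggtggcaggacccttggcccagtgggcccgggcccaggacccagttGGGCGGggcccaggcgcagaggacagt
Pparg, chr6:115421831-115421981, plus strand: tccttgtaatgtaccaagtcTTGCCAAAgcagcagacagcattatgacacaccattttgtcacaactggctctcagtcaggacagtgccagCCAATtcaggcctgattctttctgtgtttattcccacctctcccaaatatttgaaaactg
Prdm16, chr4:154636976-154637126, minus strand: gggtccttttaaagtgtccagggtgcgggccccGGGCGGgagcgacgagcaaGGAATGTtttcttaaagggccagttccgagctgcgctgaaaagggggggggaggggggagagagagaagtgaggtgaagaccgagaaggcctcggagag
Acsl1, chr8:46470334-46470484, plus strand: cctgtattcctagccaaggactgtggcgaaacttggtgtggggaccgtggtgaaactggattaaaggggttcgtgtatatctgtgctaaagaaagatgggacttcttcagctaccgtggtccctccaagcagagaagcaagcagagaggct
Lipe, chr7:25390208-25390358, minus strand: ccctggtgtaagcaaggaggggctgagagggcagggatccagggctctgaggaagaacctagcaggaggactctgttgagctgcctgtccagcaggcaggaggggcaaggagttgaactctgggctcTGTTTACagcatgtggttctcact
Cidec, chr6:113434853-113435003, minus strand: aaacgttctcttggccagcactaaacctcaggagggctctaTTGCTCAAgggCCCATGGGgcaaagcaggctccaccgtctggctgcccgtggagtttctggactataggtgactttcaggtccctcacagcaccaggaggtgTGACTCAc

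Esrra, Plin5 and Prdm16 had GC boxes, with a TEAD match in Prdm16. Pparg carried a C/EBP match, an NFI match within the same capitals and a CCAAT box, and Cidec carried C/EBP, EBF and AP-1 matches. Lipe had a FOX match, and Acsl1 had no match within the printed bases. A match here says that the letters are present, not that a factor was bound.

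Upstream promoter summits crowded toward the TSS. The median distance was 249 bp (quartiles 154 and 422 bp), and 1843 (59.8%) lay within 300 bp. The counts fell from 1205 at up to 200 bp to 638, 411 and 234 in the next windows of 100 bp, and ran between 90 and 177 in each window beyond 500 bp. For comparison, the first 100 bp upstream of a TSS held 1792 summits.

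The scores fell along the same stretch. The median score was 14.5 at up to 200 bp, 10.4 over 200 and up to 300 bp, 7.39 over 300 and up to 500 bp, and 4.81 beyond 500 bp. Of these medians, the first was above the 11.5 of the first 100 bp upstream, which was itself above the 10.4 of the first 100 bp downstream. Far summits were not all low, since 13 of the 592 beyond 500 bp had a score of at least 50. At the near bound, the 153 summits in the first 10 bp inside the window had a median score of 14.0, and the 180 in the last 10 bp outside it one of 12.2. At the far bound, the 8 summits in the last 10 bp inside had a median of 3.74 and the 12 in the next 10 bp outside one of 4.62. The members nearest to the bounds belonged to Wfs1 (score 23.1), Ppp1r12a (16.7) and Tbc1d2 (16.0), each at the first position inside the near bound, and to Cdc14a at 1000 bp with H2-K1 and Iqcn at 998 bp.

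**Figure D1:**
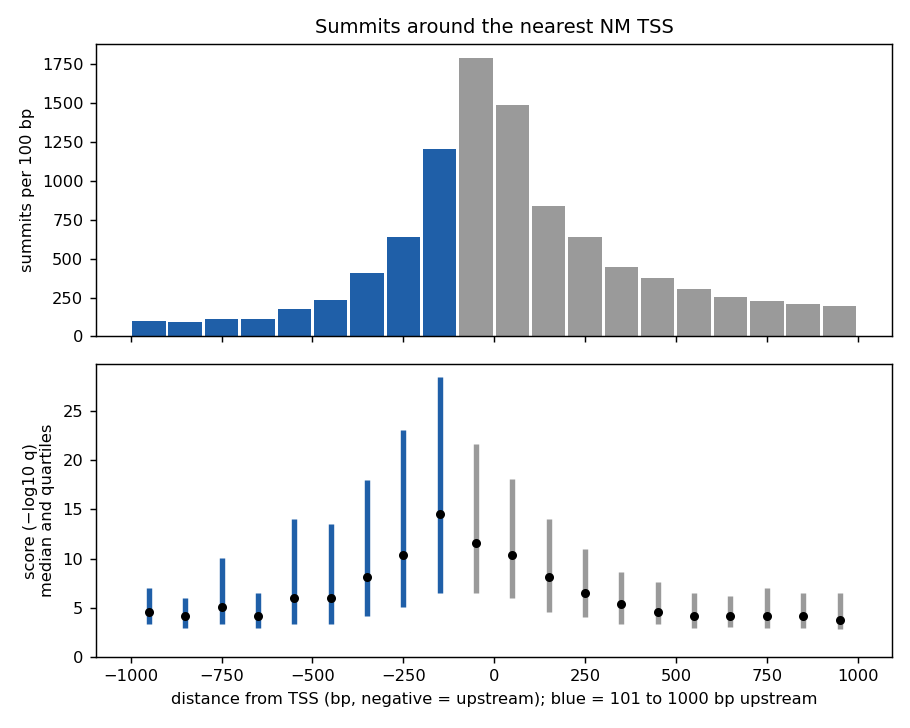
Number of summits per 100 bp (top) and their scores (bottom, −log10 q; points are medians, lines run between the quartiles) by distance from the nearest NM TSS, with upstream promoter summits in blue. The blue counts fall from 1205 to 100 over the window, and the median nearest to the TSS in blue, 14.5, is the highest of the bins drawn.

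The scores of upstream promoter summits were spread more widely than those at the TSS. Their median was 9.21 (quartiles 4.46 and 21.6, range 1.33 to 180), against 10.9 (quartiles 6.02 and 19.4) for the 3286 core summits within 100 bp of a TSS, 5.55 for the 3497 summits at the same distances downstream and 5.001 for all summits. A score of at least 10 was reached by 48.0% of upstream, 54.8% of core and 22.8% of downstream summits. At a score of at least 50 the order of the first pair turned, with 213 upstream summits (6.92%) and 113 core summits (3.44%). Of the 567 summits with such a score, 37.6% were upstream and 19.9% core, and of the 100 highest summits 40 were upstream and 9 core. High scores were not particular to upstream summits. Summits over 5 kb from a TSS made up 130 of the 567 and 38 of the 100. The 408 summits between TSSs that point away from each other, a class kept apart, had a median of 22.9. Of that class, 13.5% had a score of at least 50. These are descriptions of 1 list, and no difference between classes of summits or of genes given here or further on was tested. Scores repeat, since the members shared 493 distinct values and 146 of them had the score 4.16.

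**Figure D2:**
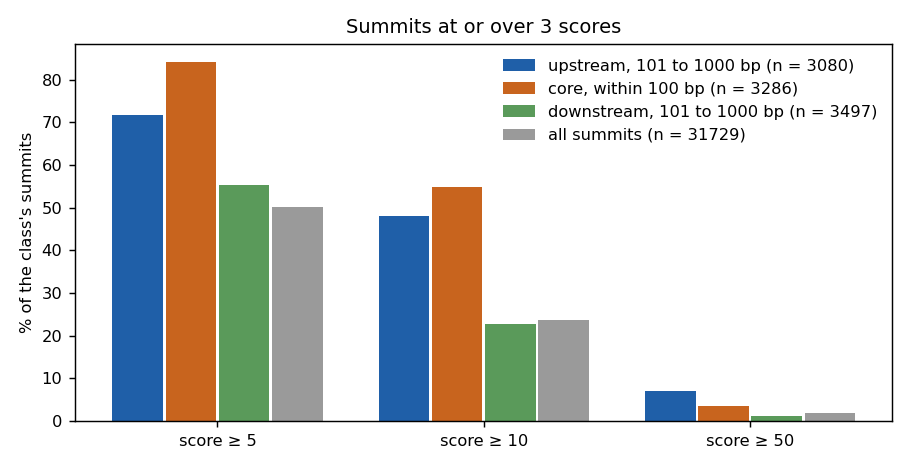
Share of summits (%) with a score (−log10 q) of at least 5, 10 and 50 in upstream, core and downstream promoter summits and in all summits. The upstream share is below the core share at 5 and 10 and above it at 50, where it is 6.92% against 3.44%. Summits between TSSs that point away from each other, with a share of 13.5% at 50, are not drawn.

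The 10 highest upstream promoter summits had scores from 108 to 180. Khsrp, which encodes an RNA-binding protein of splicing and mRNA decay, had the highest score, 180, at 325 bp, and 20 summits of chromosomes 1 to 19 scored higher. Cycs, which encodes cytochrome c, the electron carrier between complexes III and IV, followed with 155 at 141 bp. Slc25a42, the mitochondrial carrier of coenzyme A, had 118 and Mtrf1l, a release factor of mitochondrial translation, had 115, each at 298 bp. Sp1, which binds GC boxes itself, had 124 at 387 bp and a CCAAT box but no GC box of the searched letters near its summit. The others were Ifrd1, a transcriptional coregulator, with 122 at 185 bp, Fam160a2 with 113 at 275 bp, Tbl2 with 110 at 257 bp, Zbtb5, a zinc finger protein, with 110 at 149 bp, and Rab40c, a small GTPase, with 108 at 469 bp. GC boxes were found at 7 of these 10 and CCAAT boxes at 6. At 4 of the 10, Cycs, Ifrd1, Fam160a2 and Tbl2, another annotated start that was no NM TSS of the gene lay within 100 bp of the summit.

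Most genes with an upstream promoter summit had neither a core nor a downstream one. Of the 2932 genes, 1974 (67.3%) had neither, 190 (6.48%) also had a core summit, and 813 (27.7%) also had a downstream summit. Over all genes, 16.3% had a core and 16.5% a downstream summit. An upstream and a core summit of 1 gene are 2 peaks called apart, so that a single wide peak centred near one of them counts once. Where a gene had both, the core summit scored higher in 145 genes, the upstream summit in 43, and they were equal in 2, with medians of 8.65 and 4.16. Where a gene had an upstream and a downstream summit, the upstream one scored higher in 505 of 813 genes (62.1%), with medians of 7.05 and 5.07. The median score was 10.9 in the 2742 genes without a core summit and 4.16 in the 190 with one.

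A gene had as a rule 1 upstream promoter summit (2805 genes), and 127 genes had more, of which 17 had at least 3. Of the genes with 3, those with the highest summed scores are named here. Plec, which encodes the cytoskeletal linker plectin, had 6, at 215 to 854 bp from different TSSs and with scores from 1.55 to 8.65. Rara, a retinoic acid receptor, had 4, with scores from 3.75 to 11.5. Sgk1, a kinase induced by glucocorticoids, had 3, of which the one at 125 bp scored 49.1 and the others 6.02 and 2.92. Prkaca, the catalytic subunit of protein kinase A that carries the cAMP signal, had 3. Upstream of 1 TSS they scored 27.7 at 214 bp and 4.16 at 987 bp, and upstream of an inner TSS 8.65 at 404 bp. Zbtb7b, a transcription factor known to act in brown fat, had 3 upstream of different TSSs, and the one at 551 bp scored highest with 40.2. Genes with at least 2 NM TSSs made up 26.0% of the genes with an upstream promoter summit and 17.3% of all genes, so that some members lay inside a gene, upstream of an inner TSS.

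By annotation, 2425 upstream promoter summits (78.7%) lay between genes, 299 (9.71%) in an intron of their own gene, 130 (4.22%) in an intron of another gene, 181 (5.88%) in an exon of another gene and 20 in an exon of their own gene. The others lay within both their own and another gene, 14 in an intron and 11 in an exon of at least one of them. A start of another annotated transcript (GENCODE, or RefSeq other than NM) lay within 100 bp of 882 summits (28.6%). These had a median score of 14.0 and a median distance of 167 bp, and the 2198 others a median score of 8.12. By the rule these summits are upstream of an NM TSS, but they are at another start too. Noncoding starts among them were those of RefSeq NR transcripts at 93 members (3.02%), of RefSeq XR transcripts at 147 (4.77%) and of GENCODE noncoding transcripts at 166 (5.39%), and a member can be near more than 1 of these. The part of those starts in the distances and scores above was not tested. One member, near BC031181, matched the mitochondrial genome.

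The sequence around upstream promoter summits had a lower GC content than that around core and downstream summits. Within 100 bp of the summit, the median GC content was 59.7% (quartiles 53.7 and 65.7), against 64.2% at core, 62.7% at downstream and 56.2% at all summits. The ratio of observed to expected CpG had a median of 0.681, against 0.849 at core, 0.681 at downstream and 0.341 at all summits. Both fell with distance, from 62.2% GC and a ratio of 0.772 at up to 200 bp to 54.7% and 0.410 beyond 500 bp. Bases marked as repeats covered 4.94% of upstream, 1.98% of core, 2.97% of downstream and 12.2% of all summit positions.

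The TSS next to the summit was CpG-rich (GC of at least 50% and a ratio of at least 0.6 within 500 bp) for 2478 members (80.5%), compared with 78.2% of core summits, 73.5% of downstream summits and 47.6% of all NM TSSs. An upstream promoter summit was present at 20.6% of the 11822 CpG-rich TSSs and at 4.52% of the 13009 others. Scores were higher at CpG-rich TSSs, with a median of 10.9 against 5.58, while the median distances were 245 and 280 bp. By chromosome, the share of genes with an upstream promoter summit ran from 11.6% on chromosome 13 to 18.4% on chromosome 15.

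Among the patterns, the GC box and the CCAAT box were the most common at upstream promoter summits. The SP/KLF pattern, GGGCGG, was present within 100 bp of 1342 summits (43.6%, 95% Wilson interval 41.8 to 45.3), against 57.8% of core, 32.4% of downstream and 20.5% of all summits. The CCAAT box, searched as CCAAT, was present at 937 (30.4%), against 34.7% of core, 15.9% of downstream and 24.6% of all summits. At up to 200 bp upstream its share was 42.3%, above the core share, and it was 20.6% beyond 500 bp. The SP/KLF share fell over the same stretch from 58.4% to 19.4%. GC content fell along this stretch too, as given above, and its part in these shares was not tested.

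Patterns known from positions close to the TSS had lower shares upstream than at the core. The ETS pattern, CCGGAAG, was found at 7.66% of upstream and 20.6% of core summits. For the NRF1 pattern, GCATGCGC, the shares were 2.92% and 5.33%, for the cAMP response element, TGACGTCA, 1.59% and 3.86%, and for the YY1 pattern, AAGATGGCG, 0.812% and 3.01%. The E-box, CACGTG, was at 6.72% and 8.43%. The TATA box, searched as TATAAA, was as rare upstream (3.28%) as at core summits (3.07%) and reached 5.57% beyond 500 bp. Shares of the ZNF143 pattern, ACTACAATT, and of the RFX pattern, GTTGCCAT, were under 1% in each of the promoter classes.

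The C/EBP, AP-1, NFI and EBF patterns had shares a little above those of core summits. For C/EBP, AP-1 and NFI they were below those of all summits, and for EBF within counting error of it. The C/EBP pattern, TTGCNNAA, was at 6.85% of upstream, 4.14% of core and 10.6% of all summits. For the AP-1 pattern, TGANTCA, these shares were 4.64%, 2.95% and 6.44%, and for the NFI pattern, TTGGCA, 8.34%, 7.06% and 11.0%. The EBF pattern, CCCNNGGG, was at 14.3%, 12.7% and 15.4%. The nuclear receptor patterns were rare, with the PPAR pattern, GGTCANAGG, at 1.36% and the ERR pattern, TCAAGGTCA, at 0.455% of upstream summits. FOX, TGTTTAC, was at 1.79%, TEAD, ACATTCC, at 1.72%, E2F, TTTCCCGC, at 1.62% and CTCF, AGNGGGCGC, at 2.99%. The NFI letters begin with the end of the CCAAT box as read on the other strand, so that matches of this pair can overlap.

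Several patterns, not all, had other shares at high than at low scores. Of the 213 upstream promoter summits with a score of at least 50, 64.8% had the SP/KLF pattern and 53.5% the CCAAT box, against 23.9% and 19.6% of the 872 with a score under 5. The FOX pattern was at 4.69% and 1.15% of these groups, which is 10 summits in each. The AP-1 pattern went the other way, with 2.82% and 6.31%, as did the TATA box, with 0.939% and 6.08%. For the NFI pattern the shares were 10.3% and 10.2%, for the C/EBP pattern 7.51% and 8.03%, and for the EBF pattern 13.1% and 14.0%. The median score was 14.7 with the SP/KLF pattern and 6.35 without it, and 14.8 with the CCAAT box and 7.58 without it. High scores also lay nearer to the TSS, where these boxes were more frequent, and the part of distance was not tested.

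**Figure D3:**
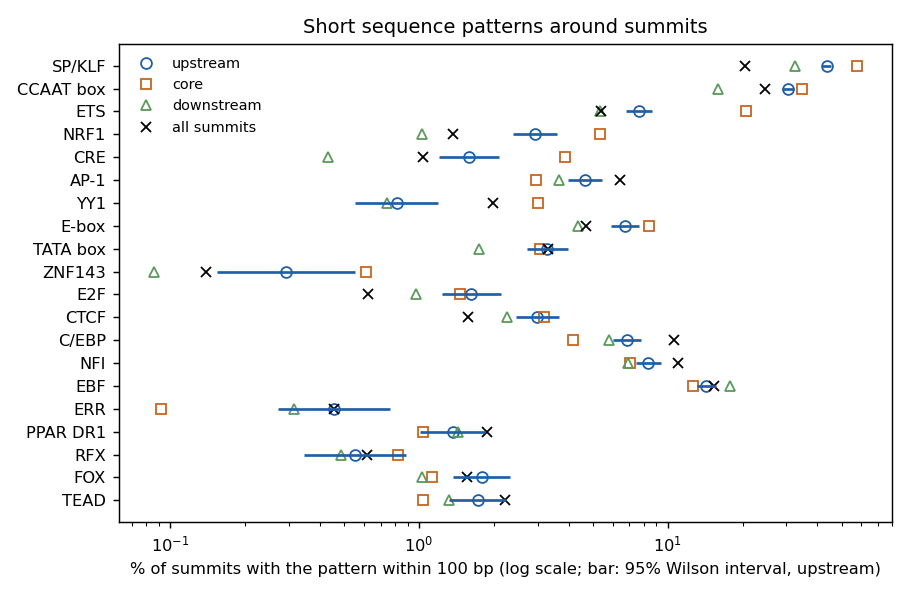
Share of summits (%, log scale) with each of 20 short patterns within 100 bp, for upstream, core, downstream and all summits; lines are 95% Wilson intervals of the upstream shares. SP/KLF (43.6%) and the CCAAT box (30.4%) lead at upstream promoter summits, and ETS, NRF1, CRE and YY1 lie to the left of their core shares.

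Lists of regulated genes had shares of genes with an upstream promoter summit above the background of 14.6%. The shares of the ribosomal and oxidative phosphorylation lists were within counting error of it. The share was 60.9% for the circadian clock (14 of 23 genes, 95% Wilson interval 40.8 to 77.8), 50% for immediate early and cAMP-responsive factors (16 of 32), 45.8% for histone lysine methyltransferases, demethylases and deacetylases (22 of 48), 41.3% for brown fat identity and heat production (19 of 46), 39.3% for insulin signalling and glucose use (11 of 28) and 38.5% for lipid use (20 of 52). It was 20.8% for cytosolic ribosomal proteins (16 of 77, interval 13.2 to 31.1), 17.9% for subunits of oxidative phosphorylation (15 of 84, interval 11.1 to 27.4) and 8.97% for mitochondrial ribosomal proteins (7 of 78, interval 4.42 to 17.4). None of 1097 olfactory receptor genes had one, which allows a share of up to 0.349% (upper bound of the 95% Wilson interval), and none of 104 keratin genes. The intervals cover counting error only, and the lists were chosen with results of these data known, so that no test was made on them.

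For the ribosomal and oxidative phosphorylation lists, the core share was above the upstream share. A core summit was present in 48.1% of cytosolic ribosomal protein genes, 44.0% of oxidative phosphorylation genes and 32.1% of mitochondrial ribosomal protein genes, compared with 35.7% of insulin and glucose, 34.4% of immediate early, 30.4% of brown fat, 28.8% of lipid, 17.4% of circadian and 6.25% of histone modifier genes. Downstream shares were above the 16.5% of all genes in each of these lists, so that shares above background were not limited to upstream summits. The downstream share was above the upstream share in the lipid, mitochondrial ribosome, cytosolic ribosome and oxidative phosphorylation lists. Downstream shares were 48.1% for lipid, 43.8% for histone modifier, 37.5% for immediate early, 32.1% for insulin and glucose, 26.9% for mitochondrial ribosome, 26.1% for brown fat and for circadian, 24.7% for cytosolic ribosome and 19.05% for oxidative phosphorylation genes. Genes with any summit within 1 kb of a TSS numbered 9371, and 31.3% of these had an upstream one. Within that set the upstream share was 82.4% for circadian (14 of 17), 55.2% for immediate early, 55.0% for histone modifier, 52.8% for brown fat, 45.8% for insulin and glucose, and 42.6% for lipid genes. It was 22.5% for the cytosolic ribosome (16 of 71), 15 of 75 genes for oxidative phosphorylation, and 10.4% for the mitochondrial ribosome. Among genes with a CpG-rich TSS, 24.2% had an upstream promoter summit, against 61.1% of the circadian, 52.5% of the histone modifier, 51.7% of the immediate early, 48.4% of the brown fat, 46.4% of the lipid and 45.8% of the insulin and glucose genes with such a TSS. With such a TSS, the share was 22.5% for the cytosolic ribosome, 17.9% for oxidative phosphorylation and 9.09% for the mitochondrial ribosome. Without regard to the TSS, the interval of each of these lists held the background of 14.6%.

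**Figure D4:**
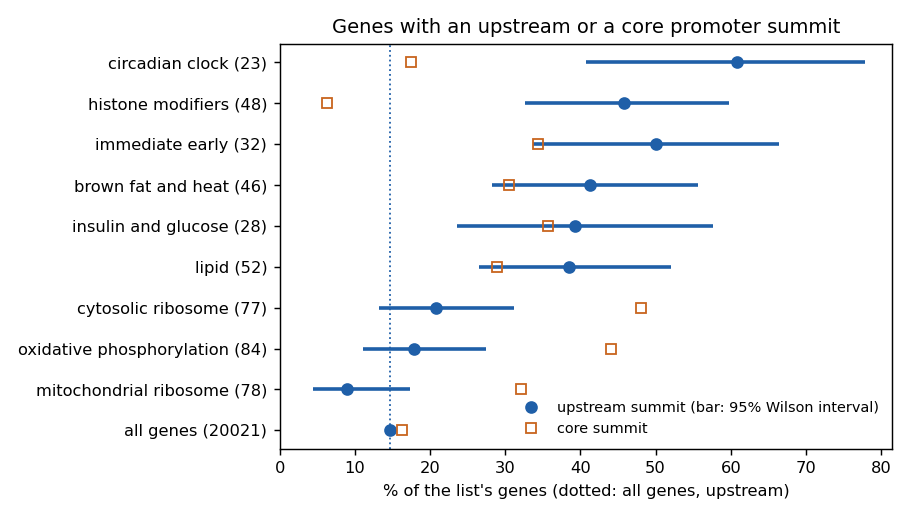
Share of genes (%) with an upstream promoter summit (points, with 95% Wilson intervals) and with a core summit (squares) in 9 gene lists and in all genes; numbers in parentheses are genes with an NM TSS. The upstream point lies to the right of the core square in the upper 6 lists and to the left of it in the lists of ribosomal and oxidative phosphorylation genes.

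The tissue label was checked with cell type markers. Over all genes, 46.8% had any summit within 1 kb of a TSS. Such a summit was present for 10 of 10 brown adipocyte and 9 of 10 adipocyte markers, 3 of 10 endothelial, 2 of 10 leukocyte, 2 of 10 progenitor and mural, 1 of 10 muscle and 1 of 9 neural markers. Upstream promoter summits were present for Cox8b, Ebf2, Kcnk3 and Prdm16 of the brown and for Adipoq, Cidec, Lipe and Pparg of the adipocyte markers, and for Egfl7, Cd68 and Pdgfra of the other cells. The part of other cells in the lists below was not tested.

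In the list of brown fat and heat production, the regulators of transcription are given first. Esrra, the estrogen-related receptor that drives mitochondrial genes, scored 59.5 at 225 bp, with a lower downstream summit of 11.5 and another annotated start within 100 bp. Cebpb and Cebpd, factors of early adipocyte differentiation, scored 41.0 at 740 bp and 15.4 at 171 bp. Pparg, the central factor of fat cells, scored 12.8 at 160 bp in an intron of its own gene, beside a core summit of 19.1. Ebf2 and Prdm16, which set brown fat identity, scored 12.5 at 109 bp, in an intron of Ebf2, and 8.65 at 178 bp. Thrb, a thyroid hormone receptor, scored 13.1, and Ppargc1b, the coactivator PGC-1β, scored 9.21 at 172 bp.

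Receptors and effectors of the same list came next. Kcnk3, a potassium channel enriched in brown adipocytes, scored 36.4 at 891 bp, within an intron of another gene. Adrb1, the β1-adrenergic receptor, scored 10.4 at 586 bp, and Gpr3, a receptor that signals to cAMP without a ligand, scored 10.9 at 106 bp. Plin5, which coats lipid droplets and ties them to mitochondria, scored 29.3 at 102 bp, just inside the window. This summit lay in an intron of Plin5, upstream of an inner TSS. Pank1, an enzyme of coenzyme A synthesis, scored 41.8 at 160 bp, and Acot11, a thioesterase of fatty acyl-CoA, scored 8.12 at 357 bp. Each of these summits lay in an intron of its own gene. Dot1l, the gene deleted in the Dot1L-BKO mice, scored 10.9 at 160 bp, between genes and with another annotated start within 100 bp. Of the 19 genes of the list, 12 (63.2%) had a score of at least 10 and 10 (52.6%) had a GC box at their highest summit. Over all members, counting every summit rather than the highest of each gene, the shares were 48.0% and 43.6%. Counted by gene, 1468 of 2932 had a score of at least 10. Zfp516, Rxra, Aifm2 and Cox8b were the remaining members, with lower scores.

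In the lipid list, 5 genes had a score above 50. Acsl1, which activates fatty acids by joining them to coenzyme A, scored 90.5 at 628 bp, against 14.0 for its core summit. Lipe, hormone-sensitive lipase, scored 84.8 at 171 bp, in an intron of Lipe upstream of an inner TSS and also within another gene, near another annotated start, and had a downstream summit of 26.9. Pdk4, which restrains glucose oxidation, scored 64.5 at 193 bp. Pck1, the enzyme of glyceroneogenesis in fat, scored 62.5 at 211 bp, and none of the 20 patterns was within 100 bp of it. Cpt1b, an enzyme of fatty acid entry into mitochondria, scored 54.7 at 172 bp, in an intron of another gene.

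The other lipid genes scored lower. Insig1, which holds back sterol synthesis, scored 49.1 at 196 bp and had an E-box, a GC box and a CCAAT box. Dgat2, which makes triglyceride, scored 30.4 at 188 bp, Cidec, a lipid droplet protein, 25.4 at 164 bp, and Acly, which makes cytosolic acetyl-CoA, 23.8 at 202 bp. The sterol factors Srebf2 and Srebf1 scored 22.4 at 159 bp and 5.55 at 187 bp. Slc27a1, a fatty acid transporter, scored 10.2, Angptl4, an inhibitor of lipoprotein lipase, 9.78, G0s2, an inhibitor of the lipase ATGL, 6.53, and Mgll, monoglyceride lipase, 5.55. The summits of Cidec and Slc27a1 lay in an intron of their own gene. Gpam, Fasn, Fabp3, Lpin1 and Gpihbp1 were the remaining members, with lower scores. Of the 20 genes, 7 had none of the patterns near the highest summit and 4 had a GC box there. Counting every upstream promoter summit rather than the highest of each gene, the GC box was at 43.6%.

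Circadian genes had summits in both arms of the clock. Among the activators, Arntl, which encodes BMAL1, scored 37.6 at 266 bp and Clock 6.53 at 512 bp, the latter with a core summit of 10.4. Among the repressors, Per2 scored 43.7 at 118 bp, Per1 36.7 at 133 bp, Ciart 32.9 at 356 bp, Cry2 26.1 at 244 bp and Per3 2.92 at 564 bp. Output factors that bind D-boxes had scores of 43.7 for Tef at 155 bp, 23.8 for Nfil3 at 417 bp and 19.8 for Dbp at 874 bp. Lower scores were found for other members, at 7.39 for the repressor Bhlhe40, 5.72 for the kinase gene Csnk1d and 5.07 for the nuclear receptor gene Rora. Summits of Clock, Tef and Rora lay in an intron of their own gene. Those of Ciart, Dbp and Bhlhe40 lay in an intron of another gene. The E-box, the element that CLOCK and BMAL1 bind, was near the summits of Tef, Per1 and Ciart, 3 of 14 genes, and GC boxes were near 10 of 14. Over all members these patterns were at 6.72% and 43.6%.

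Among immediate early genes, Nr4a3, an orphan nuclear receptor induced by cAMP, scored 66.7 at 531 bp, and its relative Nr4a1 25.9 at 577 bp. Egr1, an early growth response factor, scored 50.97 at 855 bp, and Fosl2, an AP-1 subunit, 47.3 at 997 bp, close to the far bound. Atf3, Klf6 and Klf10, transcription factors induced by stress or growth signals, scored 50.97 at 118 bp, 50.97 at 227 bp and 49.1 at 198 bp. Over 500 bp upstream lay the highest summit of 6 of the 16 genes (37.5%), compared with 4 of 11 insulin and glucose, 6 of 19 brown fat, 4 of 14 circadian and 5 of 20 lipid genes. Over all members, counting every summit rather than the highest of each gene, the share was 19.2%.

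The other immediate early genes had scores of 30.1 or less. Btg2, which restrains proliferation, had summits of 30.1 at 140 bp and 5.55 at 923 bp, and the nearer one had a full cAMP response element, the only one in this list. Klf9 scored 26.9 at 148 bp and Klf4 14.0 at 504 bp. Sik1, a kinase that feeds back on CREB signalling, scored 20.5 at 482 bp, and Crem, a cAMP-responsive factor, 18.8 at 176 bp. Fosb scored 6.02 and Atf2 5.55, and Jund and Myc were the members that scored lowest.

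Of the genes of insulin and glucose use, Trib1, a pseudokinase that leads C/EBP proteins to degradation, scored highest with 81.9 at 148 bp, and its window had C/EBP, AP-1 and FOX matches. Slc2a4, the insulin-responsive glucose transporter GLUT4, scored 46.4 at 794 bp with none of the patterns. Pkm, pyruvate kinase, scored 41.0 at 146 bp. Akt2, the main AKT kinase of insulin action in fat, had 3 members with scores of 12.2, 6.02 and 4.16 upstream of different TSSs. Irs1, Akt1, Pik3r1, Irs2, Ldha, Ptpn1 and Foxo1, most of them steps from the insulin receptor to transcription, scored between 5.87 and 8.65 at their highest summit.

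**Figure D5:**
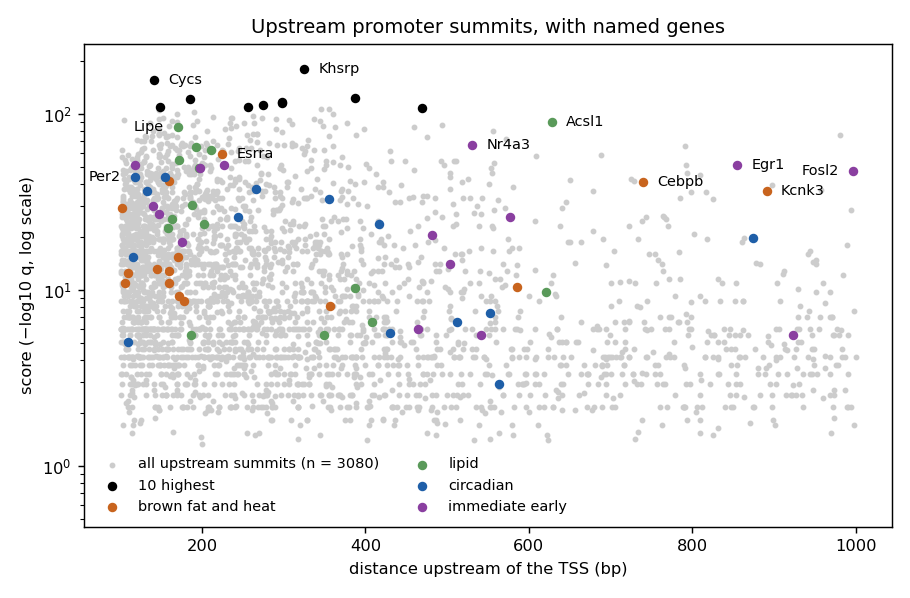
Score (−log10 q, log scale) of each of the 3080 upstream promoter summits by distance upstream of the TSS (bp), with the 10 highest and the named members of 4 gene lists in colour. High scores gather below 400 bp, while Acsl1, Nr4a3, Cebpb, Egr1, Kcnk3 and Fosl2 score from 36.4 to 90.5 at more than 500 bp.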

How the data were processed

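Nuclei from BAT of 2 mice per genotype (WT and Dot1L-BKO), each processed separately, were used for ATAC-seq. Per the study's methods and the submitters' processing notes, reads had been aligned with BWA to mm10, and the authors called peaks with MACS2 2.1.1 in ATAC mode (q-value cutoff 0.05, fold enrichment cutoff 2). For each peak, the deposited list holds a single position (its summit) with the q-value as −log10. Shifting of reads for the transposase and handling of duplicate, multi-mapped and mitochondrial reads are not given in the sources used here. A q-value depends on depth and on the background used, and scores were therefore compared only within the list.

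Summits were placed against NM TSSs of the RefSeq annotation of GRCm38 (mm10), and GENCODE M21 served only to find other annotated starts near them. GC content, CpG ratio and patterns were read from that genome within 100 bp, and mitochondrial matches were found with blastn 2.17.0 (e-value 1e-10). Named genes were the 10 highest members, up to 15 members in each of 5 lists, and those nearest to the bounds. The 5 genes with the most members were named too, with ties settled by the summed score. One named member is not reported here. The members and lists were chosen with earlier results of these data known. Placement and pattern counts were tested on simulated data. RNA-seq was not used here. Python 3.11.15 was used.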

Additional observations from a re-analysis of the deposited data

How the results depend on the processing

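No paired analysis was possible because values per library are not part of the summit list, and for the same reason no replicate could be left out. Merging summits within 500 bp and taking the other BED coordinate changed none of the counts of members and genes by over 1.5 times. The share of summits, the share of genes and the median score stayed within their counting intervals. Patterns, GC content and gene lists were not run under this pair of settings. Keeping scores of at least 5, the members were 13.9% of summits and in 10.8% of genes, with a median score of 14.7. At scores of at least 10, 1477 members were 19.7% of summits, in 1468 genes (7.33%), with a median of 22.7. With the far bound at 500 bp, members were 7.84% of summits and in 12.2% of genes, with a median of 10.9. Adding all annotated transcripts gave a median of 6.53 and 7.78% of genes, with noncoding genes in the denominator, and keeping divergent promoters gave 10.1% of summits and 15.3% of genes. Under 5 of these settings, chosen after seeing the data, the shares of 9 gene lists (those drawn in the plot of gene lists) stayed on their side of the share of all genes, 8 above it and the mitochondrial ribosome below it. In the main setting, the ribosomal and oxidative phosphorylation lists were within counting error of that share. Some margins were small, such as 14.3% against 12.2% for oxidative phosphorylation with the far bound at 500 bp. The marker, olfactory receptor and keratin lists were not run under these settings. Some of the shares themselves fell. At scores of at least 10 they were 39.1% for circadian, 27.1% for histone modifier, 26.1% for brown fat, 21.2% for lipid, 14.3% for insulin and glucose and 10.7% for oxidative phosphorylation genes, and with the far bound at 500 bp 31.2% for immediate early and 28.3% for brown fat genes. With all annotated transcripts, the lists were set beside the 12.0% of genes with an NM TSS. Pattern shares fell for 19 of 20 patterns by more than counting error when 50 bp was searched. Without depth or values per library, a gene without a summit cannot be called closed.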
